A study of Mus musculus with 7 samples.

Results

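The hypoxia response and glycolysis genes described here were 34 genes listed by name: the transcription factor gene Hif1a, its feedback regulators, glucose and lactate transporters, the enzymes from hexokinase to lactate dehydrogenase, and genes that cells short of oxygen are known to switch on. All 34 had a row among the 25127 genes of the deposited count table. Myeloid cells, enriched for the surface protein CD11b, were profiled by single-cell RNA sequencing from C57/Bl6 mice that were either naive or carried an LLC (Lewis lung carcinoma) tumor at day 14, with no other genotype or treatment given in the labels. There were 7 libraries, each a group of its own: naive blood, bone marrow and spleen, blood, bone marrow and spleen of tumor-bearing mice, and the tumor tissue itself. How many mice went into a library, and whether animals were pooled, the labels do not say. With 1 library per group no difference between groups could be tested, so each ratio is given with a 95% interval that covers counting error only and says nothing of the spread between mice.

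HIF transcription factors act when oxygen is low. In normal oxygen, prolyl hydroxylases of the Egln family mark the HIF alpha subunits for destruction, and when oxygen falls the subunits persist, pair with ARNT and bind DNA at elements that hold the core ACGTG. Their known targets raise glucose uptake and glycolysis, divert pyruvate from mitochondria to lactate, remove mitochondria and induce the vessel growth factor VEGF-A. In macrophages and other myeloid cells glycolysis also rises on inflammatory activation, and HIF-1 alpha is known to take part in that response.

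The element is shown in promoter windows, since it is the core sequence that HIF is known to bind. RefSeq windows of 300 bases (250 before to 50 after the annotated start, GRCm38.p6) were found for 31 of the 34 genes, Ero1l through its current symbol Ero1a. Both strands were searched for ACGTG, so that the palindrome CACGTG, an E-box, counts as 2 overlapping matches. At least 1 window held ACGTG in 24 of the 31 genes, or 77.4%, against 21.8% of all 27025 genes of the RefSeq promoter table and 28.0% of the 8543 genes with a window of at least 60% G and C. Some genes have several windows, and counted by window the element was in 61.9% of the members' 42 and in 19.6% of all 32851. The median G and C content was 65% over the members' windows. For the related core GCGTG the share was 67.7% of members, beside 61.1% of the genes with such GC-rich windows. A match is a description of the letters and not a bound site, and the 4 windows printed were chosen to show many matches, a few matches and none. Capitals mark ACGTG or, on the other strand, CACGT. Ldha, lactate dehydrogenase A, has 2 windows on the plus strand: the one printed, at chr7:46845554-46845853, held 5 matches and the other, at chr7:46846832-46847131, held 0. The window of Bnip3, a mitophagy receptor, lay at chr7:138909457-138909756 on the minus strand with 2, and that of Ankrd37, an ankyrin repeat gene known as a HIF target, at chr8:45999801-46000100 on the minus strand with 2. Gpi1, glucose phosphate isomerase, had 0 in its window at chr7:34230287-34230586 on the minus strand.
Ldha: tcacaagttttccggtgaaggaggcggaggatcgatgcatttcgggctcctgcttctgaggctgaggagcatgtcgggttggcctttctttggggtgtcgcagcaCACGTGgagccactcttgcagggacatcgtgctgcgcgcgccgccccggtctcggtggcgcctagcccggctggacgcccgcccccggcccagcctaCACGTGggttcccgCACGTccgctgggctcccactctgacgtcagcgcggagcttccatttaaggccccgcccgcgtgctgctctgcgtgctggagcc
Bnip3: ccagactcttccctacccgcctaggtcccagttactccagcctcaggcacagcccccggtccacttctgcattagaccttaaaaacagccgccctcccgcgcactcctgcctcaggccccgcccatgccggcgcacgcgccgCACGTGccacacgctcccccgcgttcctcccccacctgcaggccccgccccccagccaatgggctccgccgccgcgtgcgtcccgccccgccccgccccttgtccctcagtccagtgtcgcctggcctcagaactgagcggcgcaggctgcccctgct
Ankrd37: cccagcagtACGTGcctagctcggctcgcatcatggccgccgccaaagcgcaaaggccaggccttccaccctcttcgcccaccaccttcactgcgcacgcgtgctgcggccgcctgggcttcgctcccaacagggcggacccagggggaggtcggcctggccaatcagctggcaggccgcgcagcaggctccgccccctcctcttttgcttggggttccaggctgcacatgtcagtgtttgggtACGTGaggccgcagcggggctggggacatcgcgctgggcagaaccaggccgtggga
Gpi1: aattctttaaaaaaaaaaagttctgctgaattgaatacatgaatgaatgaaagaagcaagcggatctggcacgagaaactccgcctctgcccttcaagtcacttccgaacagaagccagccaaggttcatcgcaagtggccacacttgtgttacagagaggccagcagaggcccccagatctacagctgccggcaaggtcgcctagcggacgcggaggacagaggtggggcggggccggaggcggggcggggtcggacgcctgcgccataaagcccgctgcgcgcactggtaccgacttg

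The counts covered 4290 cells, from 57 cells in the bone marrow of tumor-bearing mice to 1917 in tumor tissue, and library totals ran from 617821 to 20844058 unique molecular identifiers (UMIs, which count captured RNA molecules). Median depth was similar across libraries, 8841 to 12445 UMIs per cell. Itgam, which encodes CD11b, had a UMI in 87.6% to 92.7% of the cells of each library, and 2 cell barcodes occurred in more than 1 library. Levels are given as CPM, counts scaled to a common total, the UMIs of a gene per 1000000 UMIs summed over the cells of a library or cluster. Such a level is a share of captured RNA, so more cells expressing a gene and more RNA per cell cannot be told apart in it. The 34 genes took 1.21% of all UMIs in tumor tissue and 0.364% to 0.476% in the other 6 libraries.

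**Figure D1:**
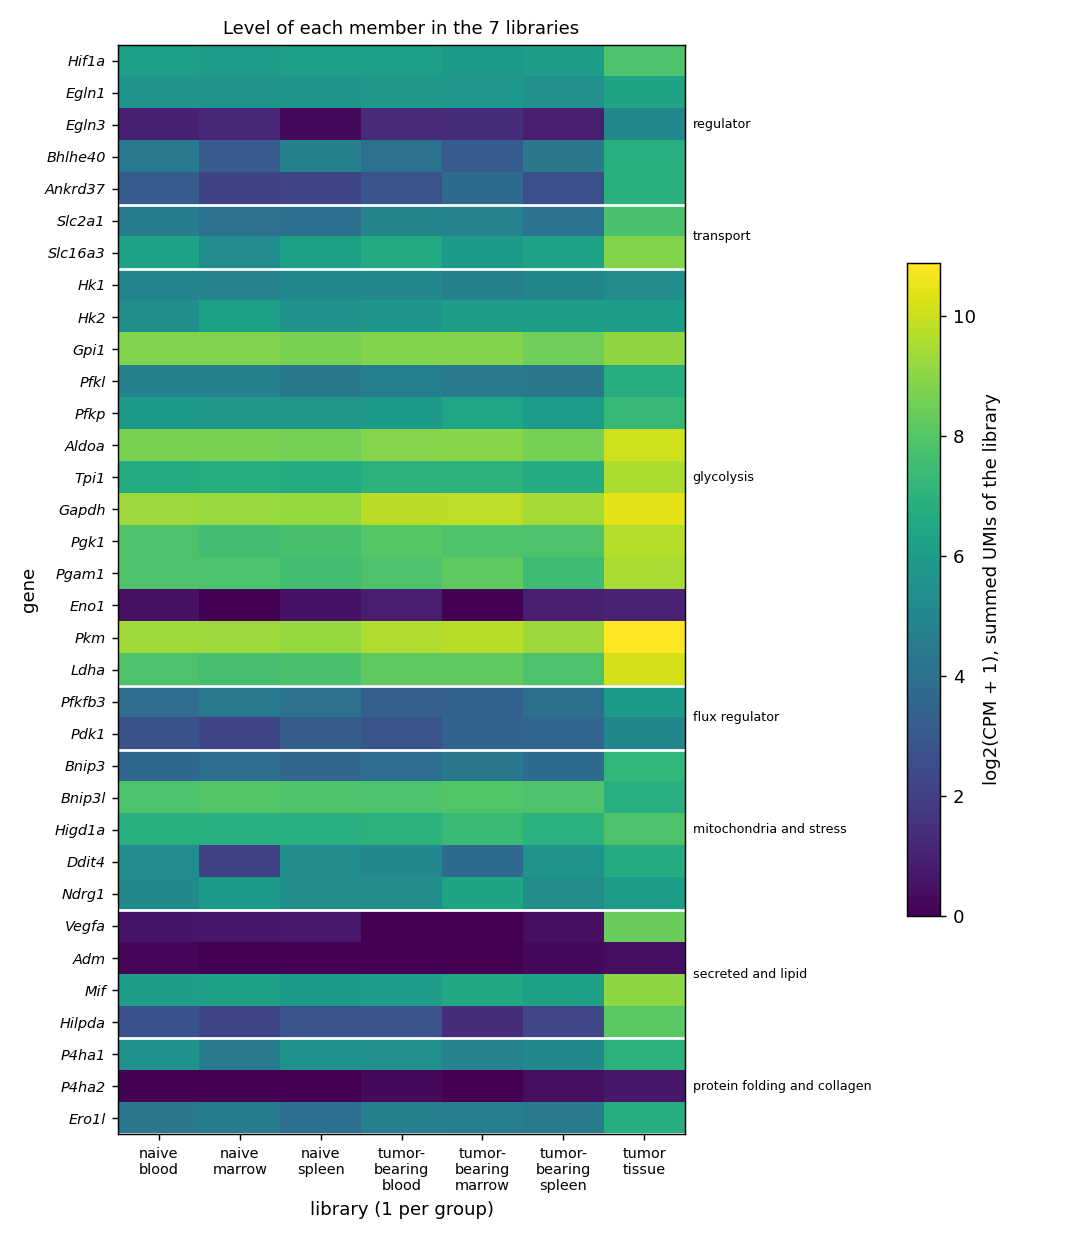
Level of each of the 34 genes (rows, grouped by role) in each of the 7 libraries (columns), as log2 of CPM plus 1 computed from summed UMIs, with no error shown because each group is 1 library. The tumor tissue column is brighter than the rest for most rows, Bnip3l is darker there, and Eno1, Adm and P4ha2 are dark in every column.

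Tumor tissue was compared with blood of tumor-bearing mice first. A gene counted as measured when its 2 libraries gave at least 30 UMIs in all and 1 of them reached 20 CPM, and as higher or lower at a ratio of at least 2. In tumor tissue 23 of the 31 measured genes were higher than in blood, 0 were lower and 8 were neither. Of all 5648 genes measured in that comparison, 10.9% were higher and 9.44% were lower. The median ratio of the 31 genes was 3.24, or 1.70 on the log2 scale, where the median of all measured genes was -0.13. Vegfa, Hilpda, Egln3, Ankrd37, Pfkfb3, Pdk1, Bnip3 and Bhlhe40 were under 20 CPM in blood. They are measured only because they are high in tumor tissue, so these counts describe the genes that could be measured and not all 34.

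Vegfa, the vessel growth factor gene (chr17:46016993-46032369, minus strand, GENCODE M21 on GRCm38), had the largest ratio of the members. It reached 335 CPM in tumor tissue, from 6992 UMIs, and 0 UMIs were found in blood and bone marrow of tumor-bearing mice. Spleen of tumor-bearing mice gave 2 UMIs, and the naive libraries 5 in blood, 1 in bone marrow and 3 in spleen. With the 0 of tumor-bearing blood set to a floor of 3 UMIs, or 0.663 CPM, Vegfa was at least 506-fold higher in tumor tissue, and the exact 95% interval for 6992 against 0 UMIs begins at 411. Against spleen the ratio was 965, with an interval of 267 to 7968 because the spleen value rests on so few molecules.

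Hilpda, which encodes a lipid droplet protein that restrains fat breakdown, reached 276 CPM in tumor tissue. The other 6 libraries lay between 1.62 and 5.97 CPM. It was 46.2-fold higher than in tumor-bearing blood (95% interval 31.7 to 70.2) and 69.0-fold higher than in spleen (45.9 to 109). Mif, a secreted cytokine with inflammatory activity, was at 523 CPM in tumor tissue and between 60.4 and 87.4 CPM elsewhere, 8.48-fold above tumor-bearing blood (7.53 to 9.59). Adm, the gene of the vasodilator peptide adrenomedullin, gave 7 UMIs in tumor tissue and at most 1 in any other library, and could not be judged.

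Among the regulators, Egln3, a prolyl hydroxylase that is itself a HIF target, was at 33.2 CPM in tumor tissue and at 0.226 to 1.62 CPM in the other libraries. Its ratio over tumor-bearing blood was 21.4 (10.3 to 53.5), resting on 7 UMIs in blood. When cells were thinned to 5000 UMIs and those with fewer left out, this ratio moved from 4.42 to 6.09 on the log2 scale. Only 1 of 343 blood cells then had an Egln3 UMI, so the thinned ratio rests on very few molecules. Egln1, the main oxygen-sensing hydroxylase, was only 1.38-fold higher (1.21 to 1.57), with 80.9 CPM against 58.8 CPM. Hif1a itself was at 227 CPM in tumor tissue and between 59.9 and 70.1 CPM in every other library, 3.24-fold above tumor-bearing blood (2.89 to 3.64). Ankrd37 was at 119 CPM against 6.19 CPM, 19.2-fold higher (13.3 to 29.0), and Bhlhe40, a transcriptional repressor, at 115 CPM against 16.4 CPM, 7.04-fold higher (5.58 to 9.0). In each of these 5 genes the tumor tissue value was above all 6 other libraries.

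Both transporters were higher in tumor tissue. Slc2a1, the glucose transporter GLUT1, was at 214 CPM there and at 14.7 to 29.8 CPM elsewhere, 7.17-fold above tumor-bearing blood (6.04 to 8.58) and 12.7-fold above spleen (10.4 to 15.7). Slc16a3, the lactate exporter MCT4, was at 463 CPM and between 38.3 and 98.6 CPM elsewhere, 4.70-fold above blood (4.27 to 5.18).

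The glycolytic enzymes differed less, and unevenly along the pathway. Of 12 measured enzymes 8 were higher than in tumor-bearing blood and 4 were neither. The first steps differed little. Hexokinase genes Hk1 and Hk2 were 1.23-fold and 1.27-fold above blood, and Gpi1 was 1.14-fold above it (1.09 to 1.19), at 535 CPM against 470 CPM. Phosphofructokinase, the committed step, was 4.41-fold higher for Pfkl (3.65 to 5.38) and 2.54-fold higher for Pfkp (2.24 to 2.88). Tpi1, triose phosphate isomerase, had the largest ratio of the enzymes: 741 CPM in tumor tissue, 101 to 126 CPM in the other 6 libraries, and 5.87-fold over blood (5.40 to 6.39).

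Of the later enzymes, Ldha was at 1165 CPM in tumor tissue and 303 CPM in tumor-bearing blood, 3.84-fold higher (3.64 to 4.06). Pgam1, Pgk1, Pkm and Aldoa, the genes of phosphoglycerate mutase, phosphoglycerate kinase, pyruvate kinase and aldolase, were 3.23-fold, 3.16-fold, 2.49-fold and 2.32-fold higher. Gapdh, often taken as a constant reference gene, was at 1406 CPM in tumor tissue against 875 CPM in tumor-bearing blood and 677 CPM in spleen, 1.61-fold (1.55 to 1.66) and 2.08-fold (2.01 to 2.15) higher. Scaled without mitochondrial, ribosomal-protein and haemoglobin genes, the spleen ratio of Gapdh was just under 2 (0.97 on the log2 scale). Eno1, the main enolase gene, had only 24 UMIs in tumor tissue and 0 to 5 elsewhere, and its near-identical copy Eno1b had 70 UMIs in tumor tissue. Reads that fit several copies may have been lost in the authors' counting, so enolase could not be judged. Gapdh, Ldha, Pgk1, Aldoa, Tpi1, Pgam1, Pkm and Mif also have close pseudogene copies in the mouse genome, so their levels may have lost reads too, by an amount that was not measured.

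Both genes that set where the carbon flows were higher. Pfkfb3, which makes the activator of phosphofructokinase, was at 59.2 CPM against 9.06 CPM in tumor-bearing blood, 6.53-fold higher (4.78 to 9.14). Pdk1, the kinase that shuts off pyruvate dehydrogenase, was at 30.5 CPM against 6.19 CPM, 4.93-fold higher (3.38 to 7.48).

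The genes of mitochondrial turnover and stress split. Bnip3 was at 145 CPM in tumor tissue and 11.1 to 19.4 CPM elsewhere, 10.3-fold above tumor-bearing blood (8.03 to 13.4). Its close relative Bnip3l (chr14:66985239-67008877, minus strand), also a mitophagy receptor and a HIF target in textbooks, went the other way, at 114 CPM in tumor tissue and 221 to 248 CPM in the 6 other libraries. That was 1.95-fold lower than in blood (1.81 to 2.10) and 2.03-fold lower than in spleen (1.90 to 2.17). Ddit4, an inhibitor of mTORC1 signalling, was 3.19-fold higher than in blood (2.69 to 3.80). Higd1a, a small mitochondrial membrane protein, and Ndrg1, a stress-induced gene, were 1.83-fold and 1.70-fold higher, under the limit of 2. Of the genes of protein folding and collagen maturation, the oxidase Ero1l was 4.23-fold higher (3.51 to 5.13) and the prolyl hydroxylase subunit P4ha1 2.94-fold (2.54 to 3.43). Its relative P4ha2 had 13 UMIs in tumor tissue and at most 2 elsewhere, too few to judge.

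Against spleen of tumor-bearing mice, which shares the tumor tissue library with the comparison above, 24 of 31 measured genes were higher, 1 was lower and 6 were neither. Of all 5752 genes measured there, 10.7% were higher and 12% were lower. Vegfa, Hilpda, Egln3, Ankrd37, Slc2a1, Pfkl, Pfkfb3, Pdk1, Bnip3 and Bhlhe40 were under 20 CPM in that spleen library. They counted as measured only through tumor tissue, where they are high. The lower gene was Bnip3l. The median ratio was 3.58. Hk2 was at 66.0 CPM in tumor tissue and 67.5 CPM in spleen, the only member besides Bnip3l with a ratio under 1.

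**Figure D2:**
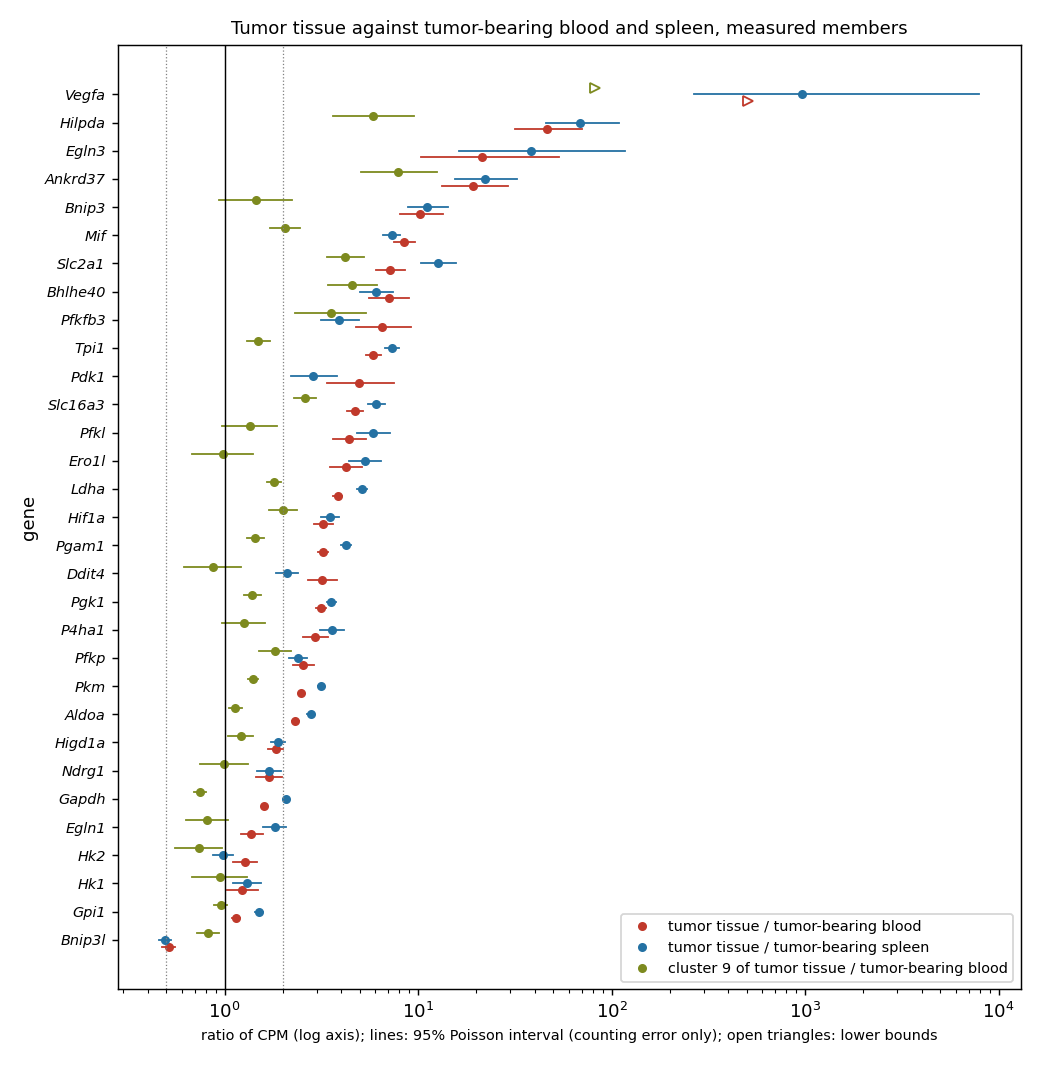
Ratio of CPM (log axis) for the 31 measured genes in tumor tissue over tumor-bearing blood (red) and spleen (blue), and in cluster 9 of tumor tissue over tumor-bearing blood (green, genes measured there), with 95% Poisson intervals for counting error only, open triangles for lower bounds and dotted lines at ratios of 0.5 and 2. Vegfa, Hilpda, Egln3 and Ankrd37 lie farthest right in red and blue, and Bnip3l lies left of 1.

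Marker genes of other cell kinds and genes known to respond to handling also differed in these comparisons. Marker genes of macrophages summed to 6683 CPM in tumor tissue and 2191 CPM in tumor-bearing blood, and those of neutrophils to 340 CPM and 3852 CPM. Dendritic cell markers summed to 769 CPM in tumor tissue and 447 CPM in blood, B cell markers to 44.0 CPM and 294 CPM, and monocyte markers to 8177 CPM and 10728 CPM. The 3 platelet markers summed to 286 CPM in tumor tissue, 5.97 CPM in blood and 0.348 CPM in spleen. Only 1 of these 3 was measured, and their sum was highest in cluster 11 of tumor tissue, at 859 CPM. That cluster also had the highest macrophage sum. Of 6 carcinoma markers 4 had UMIs in tumor tissue, Krt19 and Cldn4 were at 0, and the summed level was 3.98 CPM, beside 3.48 to 6.47 CPM in the other libraries. All 7 fibroblast and endothelial markers had UMIs in tumor tissue, with a sum of 20.5 CPM beside 2.49 to 4.69 CPM elsewhere. A list of 12 genes known to respond to tissue dissociation and heat shock summed to 10264 CPM in tumor tissue, 4840 CPM in tumor-bearing blood and 3295 CPM in spleen. Of these, 8 were higher than in blood, among them Fosb at 88.7-fold, Atf3 at 10.9-fold, Jun at 7.71-fold and Hspa1a at 7.51-fold. The part of cell makeup and of handling in the results on tumor tissue was not tested.

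Other genes of the same and of neighbouring pathways were read from lists drawn up by function, with earlier results of these data known. Of all 5648 genes measured in tumor tissue and tumor-bearing blood, 10.9% were higher in tumor tissue and 9.44% were lower. Of 18 measured further HIF pathway genes, 7 were higher in tumor tissue than in tumor-bearing blood and 1, Selenbp1, was lower. The largest ratios were those of Ier3, an immediate early gene (151-fold, 118 to 196), Ppp1r15a, a stress-induced phosphatase subunit (6.50-fold), Rbpj, the Notch pathway transcription factor (6.12-fold), and Fam162a, a mitochondrial HIF target (4.39-fold). Of 14 measured further glycolysis genes, mainly other isoforms, 1 was higher, Pgm2 at 4.23-fold, and 2 were lower. Ldhb, the isoform that favours pyruvate, was at 13.6 CPM against 52.6 CPM, 3.86-fold lower, while the muscle enolase gene Eno3 was 9.91-fold lower. Of 7 measured pentose phosphate genes, whose pathway branches off glycolysis to make NADPH, 0 were higher and 3 were lower, namely Rpia, G6pdx and Taldo1 at 2.55-fold, 2.43-fold and 2.07-fold lower. Of 16 measured citrate cycle genes 0 were higher and 0 lower, with a median log2 ratio of -0.16.

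Between tumor-bearing and naive mice the members that could be measured differed little in blood and spleen. Vegfa, Hilpda, Egln3, Ankrd37, Bnip3, Pfkfb3 and Pdk1 were not among them, being under 20 CPM in each of these libraries. In blood 0 of 24 measured members passed a ratio of 2 in either direction. Of the 5300 genes measured 0.698% did, so a count of 0 is near that share. For 18 of the 24 the ratio was above 1, but such a count was not made over all genes. The median log2 ratio was 0.15 for the members and 0.01 for all measured genes. The largest ratio was that of Gapdh, with 875 CPM in tumor-bearing and 621 CPM in naive blood, 1.41-fold higher (1.35 to 1.47). Ldha was 1.31-fold higher (1.23 to 1.41). Within the 4 clusters of blood cells with enough cells in both libraries the Gapdh ratio was 1.62, 1.36, 1.47 and 1.17 in clusters 0, 1, 2 and 4. The Ldha ratio there was 1.49, 1.18, 1.54 and 0.956, and its interval in cluster 4 spanned 1 (0.808 to 1.13). Neutrophil markers summed to 3852 CPM in tumor-bearing and 1424 CPM in naive blood and macrophage markers to 2191 CPM and 3615 CPM. Of 5 measured macrophage markers 3 had a ratio above 1, so the lower sum was not shared by all. The part of cell makeup in these ratios was not tested.

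In spleen 0 of 23 measured members passed a ratio of 2, against 0.387% of 5426 genes, so this count too is near the share of all genes. Hk2 had the largest ratio, 1.46 (1.23 to 1.74), and P4ha1 and Bhlhe40 were each 1.35-fold lower. There were 5 spleen clusters with enough cells in both libraries. Within them 1 of 21 measured members passed in cluster 0 and 2 of 21 in cluster 1. Of all genes measured there 2.57% and 1.69% passed. In clusters 2, 4 and 6 the counts were 0 of 22, 0 of 22 and 0 of 23, against 3.12%, 2.45% and 2.69%. These counts of 0 are near those shares. The member that passed in cluster 0 was Ddit4, 2.90-fold higher (1.27 to 7.43) from 25 against 8 UMIs. Its ratio was 1.84, 1.17, 0.618 and 1.60 in clusters 1, 2, 4 and 6, so it was not on one side of 1 throughout. In cluster 1 Hk2 was 2.15-fold higher (1.49 to 3.15) and Bhlhe40 2.30-fold lower (1.39 to 3.85). Macrophage markers summed to 1906 CPM in tumor-bearing and 2865 CPM in naive spleen and neutrophil markers to 4738 CPM and 2814 CPM. Of 6 measured macrophage markers 2 were higher and 0 lower, with a median ratio of 1.06, so the lower sum was not shared by all. The part of cell makeup in these ratios was not tested.

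In bone marrow, where the tumor-bearing library held 57 cells, 1 of 23 measured members passed, against 3.23% of 5505 genes. It was Pfkfb3, 2.27-fold lower from 6 against 34 UMIs, with an interval of 0.943 to 6.62 that spans 1. Gapdh at 1.5-fold (1.35 to 1.67) and Ldha at 1.47-fold (1.22 to 1.77) were again above naive, at ratios under 2. Here macrophage markers summed to 1538 CPM in the tumor-bearing and 2880 CPM in the naive library. Of 4 measured macrophage markers 3 had a ratio above 1 and 1 was lower. Neutrophil markers summed to 7980 CPM and 8869 CPM and red cell markers to 11.3 CPM and 142 CPM. The part of cell makeup was not tested.

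Within tumor tissue, the authors' clusters 3, 5, 7, 8, 9, 10, 11 and 17 held at least 50 cells each and together 1869 of 1917 cells. Cluster 13, with 40 cells and a median of 1478 UMIs, was left out. The clusters were made from the expression of these same cells, so differences between them are a description. All but 11 of the cells in these 8 clusters came from tumor tissue. Macrophage markers summed highest in cluster 11 (15025 CPM) and dendritic cell markers in cluster 17 (6997 CPM), while monocyte markers ran from 5785 CPM in cluster 11 to 13968 CPM in cluster 10. Cluster 11 also had a median of 29673 UMIs per cell, against 8232 to 10695 in the other 7.

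The 34 genes took 1.71% of UMIs in cluster 7, 1.47% in cluster 5, 1.29% in cluster 3, 1.21% in cluster 8, 1.13% in cluster 10, 1.07% in cluster 11, 0.806% in cluster 17 and 0.578% in cluster 9. Of the 31 measured genes 21 were highest in cluster 7, which 9.68% of all 6170 measured genes were, and 23 were lowest in cluster 9, against 13% of all. Both held for 16 members and for 1.69% of all. The highest cluster exceeded the lowest at least 2-fold for 29 of 31 members, but so it did for 62.4% of all measured genes. The median of this spread was 3.07 for the members and 2.34 for all measured genes. Without cluster 9 the spread reached 2-fold for 24 of 31 members, beside 57.7% of all.

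**Figure D3:**
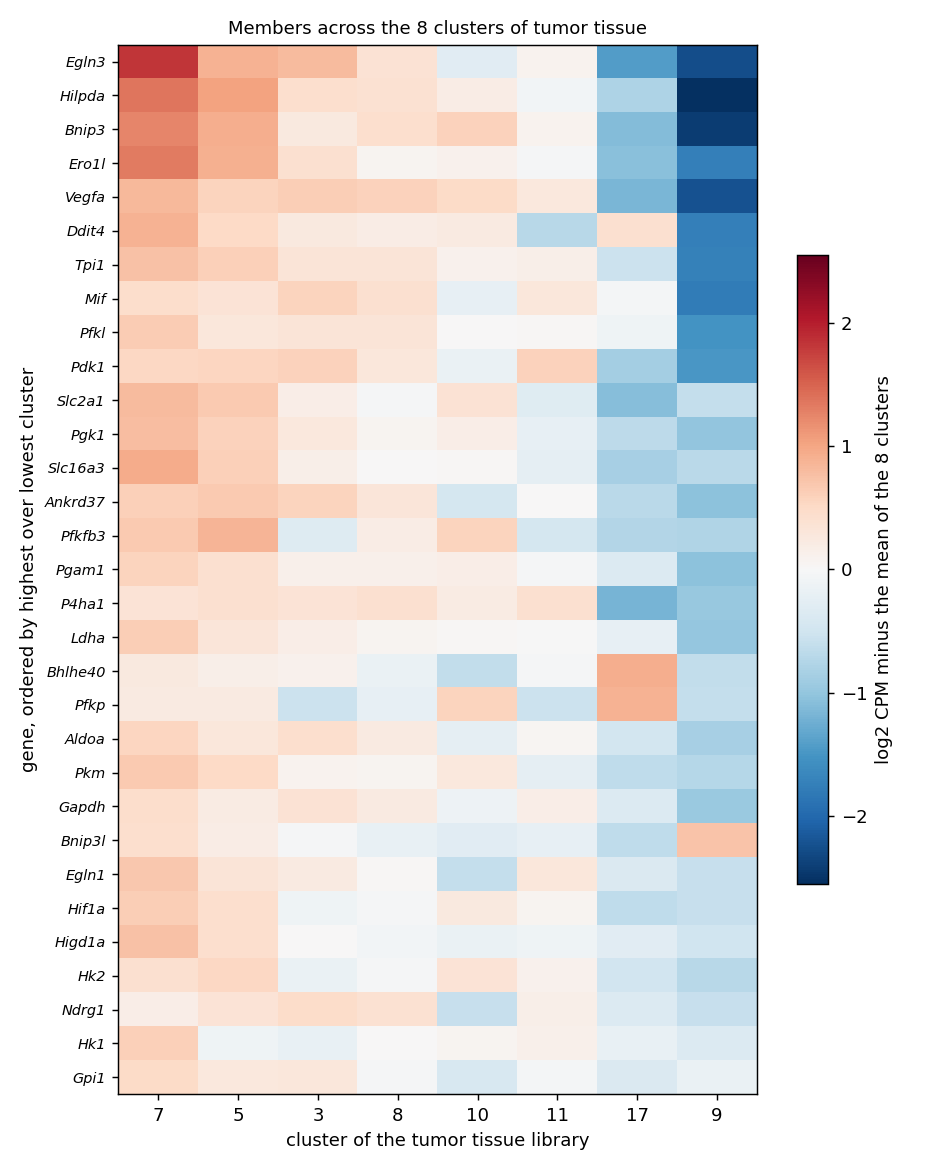
The 31 measured genes (rows, ordered by the ratio of the highest over the lowest cluster) in the 8 clusters of tumor tissue (columns), as log2 CPM minus the gene's mean over the 8 clusters. Cluster 7 is red for nearly all rows and cluster 9 blue for all but Bnip3l, while Pfkp and Bhlhe40 are highest in cluster 17.

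The 6 widest spreads belonged to genes outside the glycolytic enzymes. Egln3 was at 78.2 CPM in cluster 7, 40.8 in cluster 5, 38.6 in cluster 3, 28.4 in cluster 8, 23.3 in cluster 11, 17.9 in cluster 10, 8.18 in cluster 17 and 4.56 in cluster 9, a ratio of 17.1 from highest to lowest (8.52 to 40.3). Hilpda was at 529 CPM in cluster 7, 417 in cluster 5, 278 in cluster 3, 270 in cluster 8, 233 in cluster 10, 196 in cluster 11, 118 in cluster 17 and 34.8 in cluster 9, a 15.2-fold spread (11.8 to 20). Both genes thus followed the same order at the ends, with clusters 7 and 5 first and clusters 17 and 9 last.

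Bnip3 was at 261 CPM in cluster 7, 210 in cluster 5, 164 in cluster 10, 148 in cluster 8, 131 in cluster 3, 116 in cluster 11, 50.7 in cluster 17 and 20.5 in cluster 9, a 12.7-fold spread (9.07 to 18.3). Ero1l was at 216 CPM in cluster 7, 162 in cluster 5, 114 in cluster 3, 93.2 in cluster 10, 90.6 in cluster 8, 84.1 in cluster 11, 40.9 in cluster 17 and 25.7 in cluster 9, an 8.40-fold spread (6.19 to 11.7). Vegfa had another shape: 6 clusters lay close together, at 448 CPM in cluster 7, 390 in cluster 3, 380 in cluster 8, 374 in cluster 5, 356 in cluster 10 and 303 in cluster 11. Only clusters 17, at 113 CPM, and 9, at 54.2 CPM, lay below them, for a spread of 8.26 (6.69 to 10.3).

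Ddit4 was at 173 CPM in cluster 7, 134 in cluster 5, 124 in cluster 17, 111 in cluster 3, 110 in cluster 10, 106 in cluster 8, 57.0 in cluster 11 and 28.0 in cluster 9. Here the macrophage marker-rich cluster 11 was the second lowest and cluster 17 the third highest. Tpi1 was at 1045 CPM in cluster 7, 950 in cluster 5, 781 in cluster 3, 778 in cluster 8, 690 in cluster 11, 675 in cluster 10, 424 in cluster 17 and 188 in cluster 9, the widest spread of the enzymes at 5.55 (4.95 to 6.25). Mif was at 646 CPM in cluster 3, 597 in cluster 7, 585 in cluster 8, 555 in cluster 5, 534 in cluster 11, 424 in cluster 17, 379 in cluster 10 and 127 in cluster 9. Without cluster 9, Mif spread only 1.71-fold.

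Pfkl was at 152 CPM in cluster 7, 123 in cluster 3, 122 in cluster 8, 119 in cluster 5, 99.9 in cluster 11, 97.8 in cluster 10, 90.0 in cluster 17 and 33.7 in cluster 9. Pdk1 was at 36.1 CPM in cluster 3, 36.0 in cluster 11, 35.2 in cluster 5, 34.5 in cluster 7, 29.3 in cluster 8, 21.4 in cluster 10, 13.1 in cluster 17 and 8.56 in cluster 9, a spread of 4.21 (2.48 to 7.71). With cells thinned to 5000 UMIs the Pdk1 spread was 2.96 on the log2 scale in place of 2.07. The smallest spreads were those of Gpi1 (1.86), Hk1 (1.94) and Ndrg1 (2.09), and the other members ran from 2.36 for Hk2 to 3.72 for Slc2a1.

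The other 10 members were highest outside cluster 7. Bnip3l was highest in cluster 9, at 183 CPM, where 23 of the 31 members were lowest, and at 70.3 to 148 CPM in the other 7 clusters. Pfkp, at 308 CPM, and Bhlhe40, at 219 CPM, were highest in cluster 17. Ankrd37, Pfkfb3 and Hk2 were highest in cluster 5, Ndrg1, Mif and Pdk1 in cluster 3 and P4ha1 in cluster 11. Of the members not lowest in cluster 9, Slc2a1, Slc16a3, P4ha1, Bnip3l and Hif1a were lowest in cluster 17 and Bhlhe40, Egln1 and Gpi1 in cluster 10.

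Each cluster was also set against all other tumor tissue cells. In cluster 7, 30 of 31 members were above the rest, with a median ratio of 1.49, and 15 reached 1.5-fold, against 4.65% of the 5137 genes measured. Only Egln3, Ero1l and Hilpda reached 2-fold, at 2.86, 2.23 and 2.18, as did 1.15% of all genes. Cluster 5 also had 30 of 31 above the rest, with a median ratio of 1.27. There 0 were 2-fold higher, against 0.295% of 5092 genes. In clusters 3, 8, 10 and 11 the members above the rest numbered 21, 13, 12 and 7, and 0 were 2-fold higher or lower. In cluster 9, 30 of 31 were below the rest, with a median 2.24-fold lower, and 17 were at least 2-fold lower, against 8.57% of 5253 genes. In cluster 17, 28 were below the rest and 9 at least 2-fold lower, against 9.87% of 5371 genes. Pfkp alone was at least 2-fold higher there, at 2.07, as were 5.32% of all genes. The median log2 ratio of the members was 0.57, 0.34, -1.16 and -0.72 in clusters 7, 5, 9 and 17. For all measured genes it was -0.10, -0.12, -0.03 and -0.03. The share of all genes merely above or below the rest was not counted.

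Cluster 9 was compared with tumor-bearing blood after these values were seen. Of 29 measured members 9 were higher in cluster 9 and 0 lower, where 5.59% of all 5398 measured genes were higher. Vegfa was at least 81.7-fold higher with blood at the floor of 3 UMIs, and the exact interval for its 95 against 0 UMIs begins at 65.2. Ankrd37 was 7.83-fold higher (5.06 to 12.5), Hilpda 5.83-fold (3.65 to 9.54), Bhlhe40 4.57-fold, Slc2a1 4.19-fold, Pfkfb3 3.52-fold, Slc16a3 2.60-fold and Mif 2.05-fold. Vegfa, Ankrd37, Hilpda, Bhlhe40 and Pfkfb3 were under 20 CPM in blood, so they counted as measured only through cluster 9. Hif1a, at 2.0-fold (1.69 to 2.37), sat on the limit and was just under it in 3 of the other settings tried. None of the 12 measured glycolytic enzymes was among the 9: they ran from Hk2, 1.36-fold lower, to Pfkp, 1.81-fold higher. Ldha, at 1.80-fold, passed 2 when cells were thinned (1.02 on the log2 scale), and Gapdh was 1.34-fold lower (1.26 to 1.43). Bnip3, at 20.5 CPM against 14.1 CPM, was 1.45-fold higher with an interval of 0.937 to 2.22. The dissociation and heat shock list was at 9090 CPM in cluster 9, within the range of the 8 clusters (9056 to 11467 CPM), and 8 of its 12 genes were higher than in blood there too. Neutrophil markers summed to 132 CPM in cluster 9 and macrophage markers to 1785 CPM, beside 3852 CPM and 2191 CPM in blood. Of 7 measured macrophage markers, however, 3 were higher in cluster 9 and 0 lower. The part of cell makeup was not tested.

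**Figure D4:**
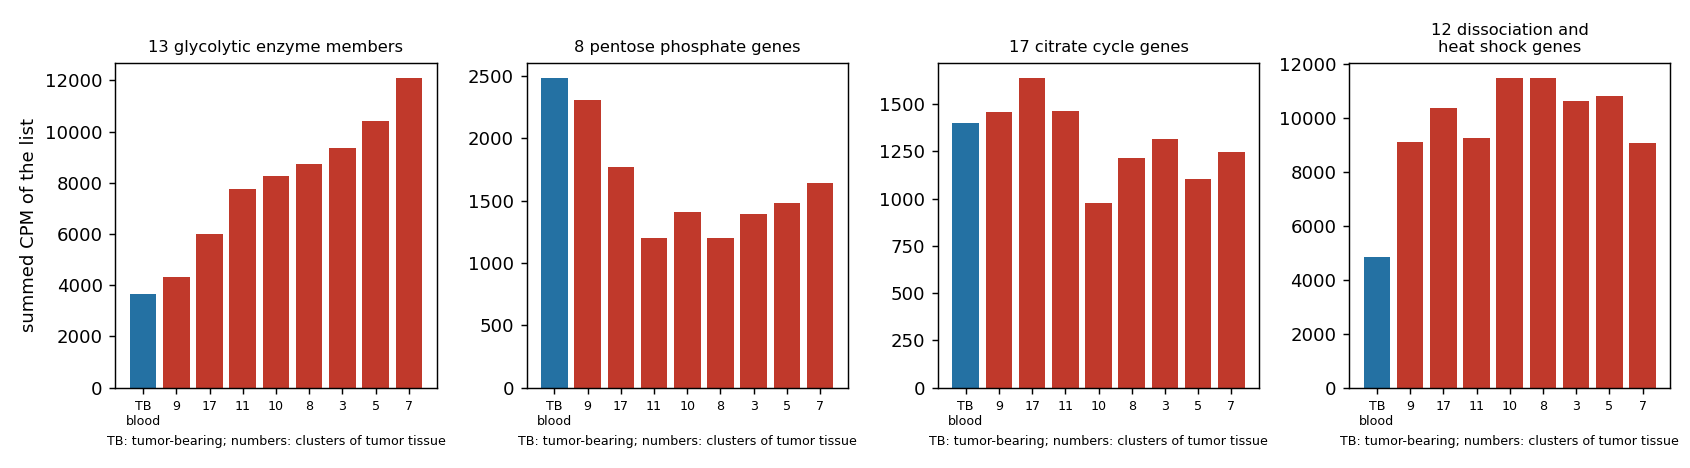
Summed CPM (bars, axes from 0, one scale per panel, no replicate error) of 4 gene lists in tumor-bearing blood (blue) and the 8 clusters of tumor tissue (red). The 13 glycolytic enzyme genes climb from 4327 CPM in cluster 9 to 12078 CPM in cluster 7, pentose phosphate genes are highest in blood and cluster 9, and the dissociation list is above blood in all 8 clusters.

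The sums of the enzyme lists did not share 1 order. The 13 glycolytic enzyme genes summed to 3658 CPM in tumor-bearing blood, 4327 CPM in cluster 9, 6007 CPM in cluster 17 and 12078 CPM in cluster 7. Pentose phosphate genes ran differently, at 2483 CPM in blood, 2309 CPM in cluster 9 and 1199 to 1768 CPM in the other 7 clusters. So did the 33 further glycolysis genes, at 972 CPM in blood, 921 CPM in cluster 9 and 605 to 826 CPM in the other 7. Citrate cycle genes lay between 977 CPM in cluster 10 and 1638 CPM in cluster 17, with blood at 1403 CPM. The dissociation list was at 9056 CPM in cluster 7 and 9090 CPM in cluster 9, the clusters with the highest and lowest sums of the 13 enzyme genes. The part of handling in the order of these 13 genes was not tested.

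Shares of cells with at least 1 UMI were compared after each cell was thinned to 5000 UMIs, which left out 248 cells, 190 of them from tumor tissue. Vegfa was found in 63.5% of tumor tissue cells (exact binomial 95% interval 61.1 to 65.7, and 74.0% unthinned), in 78.6% of cluster 7 and in 21.1% of cluster 9 (15.5 to 27.5). In tumor-bearing blood 0 of 343 cells had a UMI, which allows a share of up to 0.875% by the rule of 3 counts, while the exact binomial interval ends at 1.07%. Hilpda was found in 39.4% of tumor tissue cells (48.7% unthinned), 58.4% of cluster 7, 12.6% of cluster 9 and 2.33% of tumor-bearing blood. For Slc2a1 the shares were 57.8% of tumor tissue cells (72.7% unthinned), 70.0% of cluster 7, 41.6% of cluster 9 and 13.7% of blood. For Bnip3 they were 38.6% of tumor tissue cells (50.9% unthinned), 56.8% of cluster 7, 5.79% of cluster 9 (2.93 to 10.1) and 6.71% of blood (4.30 to 9.89), and the intervals of cluster 9 and blood overlapped. Free RNA in the droplets can give cells UMIs of genes they do not express, and its part in the tumor tissue shares was not tested. No single cell carried a level: among measured members the cell with the most UMIs held at most 2.17% of a gene's tumor tissue UMIs.

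**Figure D5:**
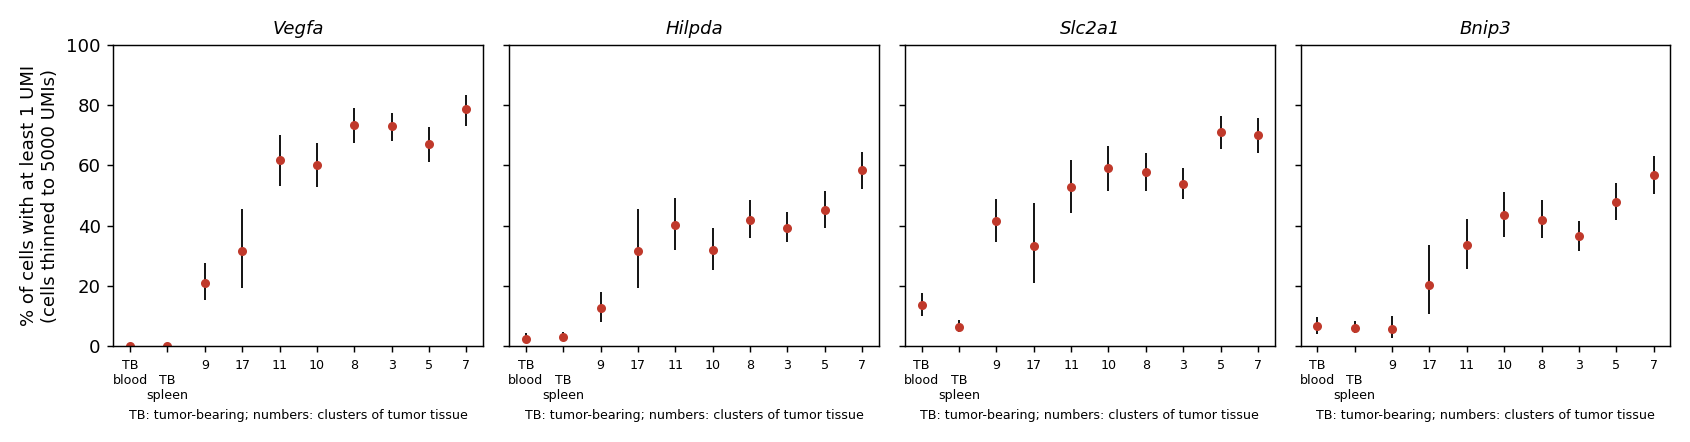
Share of cells with at least 1 UMI of Vegfa, Hilpda, Slc2a1 and Bnip3 after thinning to 5000 UMIs per cell, in blood and spleen of tumor-bearing mice and in the 8 clusters of tumor tissue (points, with exact binomial 95% intervals that cover counting error only). For Bnip3 cluster 9 sits with blood and spleen, for Slc2a1 it sits well above them.

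The tumor tissue clusters were then set beside 7 clusters of blood, spleen and bone marrow cells. For 19 of 31 measured members every one of the 8 tumor tissue clusters was above every one of these 7, against 6.99% of all 6734 genes measured, and for 0 members every one was below, against 9.19%. Only 26 members could be measured in the 7 clusters alone. Vegfa, Hilpda, Egln3 and Ankrd37 are among the 19 and were measured only through tumor tissue, with at most 10.4 CPM in the 7. Vegfa had 1 or 2 UMIs in each of the 7 clusters, at most 3.47 CPM, and its lowest tumor tissue cluster was at 54.2 CPM. Among the 7 clusters of blood, spleen and bone marrow cells, 12 of 26 measured members spread at least 2-fold, against 37.1% of 6003 genes. The median spread was 1.85 for members and 1.75 for all genes. Cluster 4 was highest for Slc16a3 (174 CPM), Ddit4 (96.9 CPM, against 6.54 CPM in cluster 0), P4ha1 (75.4 CPM) and Bhlhe40 (69.0 CPM, against 1.42 CPM from 1 UMI in cluster 16). Cluster 16 was highest for Pfkfb3, at 56.8 CPM from 40 UMIs, where the other clusters went down to 9.18 CPM. Ldha, Pkm and Gapdh spread 1.28-fold, 1.35-fold and 1.37-fold.

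Across the 8 tumor tissue clusters, 433 of the 465 pairs of measured members had a positive Pearson correlation of log2(CPM + 1), with a median of 0.78. This describes 8 points of 1 library that share the clustering and the scaling. The members least like the others were Bnip3l, Pfkp and Bhlhe40, with median correlations of -0.02, 0.13 and 0.19.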

How the data were processed

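Single-cell RNA libraries were made with 3' chemistry, per the labels' protocols. The deposited files hold raw UMI counts for each gene in each cell, and metadata with library, cluster and, per the file headers, the mitochondrial fraction of a cell. Per the submitters' processing notes, Cell Ranger was used with mm10. Its version, the annotation and the cell filters were not given in the sources used here. Of 4527 cells in the metadata, 4290 had counts and were used, with no further filter and no doublet caller. The deepest 2% of cells were left out as an alternative. The smallest cell held 854 UMIs.

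Counts were summed by library and by the authors' cluster and scaled to CPM. Ratios have exact conditional binomial 95% intervals, and a library at 0 was set to 3 UMIs for a bound. No test between groups was possible with 1 library each. The calculation was tested on simulated data. Members and lists were chosen with earlier results of these data known. By rule, up to 8 members at each end of a comparison, the 10 widest and 3 narrowest among clusters and up to 4 genes of other lists were named, and the remaining members are given by role. Reads shared with pseudogene copies may be lost in counting. Python 3.11.15, numpy, scipy, pandas and matplotlib were used, with RefSeq promoter windows (GRCm38.p6). Alternatives covered scaling, thinning, filters, thresholds and cells or clusters left out.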

Additional observations from a re-analysis of the deposited data

How the results depend on the processing

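Of 1152 recomputed values of single members, 1121 stayed within their counting interval, 31 moved beyond it and 0 values past 2-fold changed direction. The 23 members higher in tumor tissue than in tumor-bearing blood ranged from 21 (at least 100 UMIs and 50 CPM) to 26 (ratio of 1.5), and the 24 against spleen from 22 to 27. Members lower than in blood were 1 in place of 0 when scaled without mitochondrial, ribosomal-protein and haemoglobin genes and 1 at a ratio of 1.5, Bnip3l in both. Without cluster 11, chosen after seeing the data, members lower than in spleen were 0 in place of 1. Scaled without those genes, Gapdh and Ddit4 lost their call against spleen.

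Tumor-bearing against naive, no filter on low values gave 1 member past 2-fold in blood and 1 in spleen in place of 0, and the largest cluster alone (cluster 1) gave 2 in spleen. In bone marrow the 1 member became 0 with thinned cells, 0 at 100 UMIs and 50 CPM, 0 in the largest cluster (cluster 0), 3 at a ratio of 1.5 and 5 with no filter. In cluster 9 against blood, 9 became 5 at 100 UMIs and 50 CPM, where fewer genes are tested. The 3 members 2-fold higher in cluster 7 than in the rest became 15 at a ratio of 1.5 and 5 against the mean of the other clusters. The spread of at least 2-fold held for 17 members in place of 29 between the second highest and second lowest cluster. The bound for Vegfa depends on depth, at 8.98 on the log2 scale against blood and 7.60 when thinned. The causes were not tested. No paired analysis was possible because each group held 1 library, and for the same reason no library could be left out. Low counts limit Adm, P4ha2, Eno1 and, in bone marrow, 11 members, and for Eno1 reads may have been lost in the counting.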

Other observations

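Some genes of the other lists also differed among the tumor tissue clusters, and those given here were picked after their values were seen. Fam162a was at 166 CPM in cluster 7, its highest, and 27.4 CPM in cluster 9, its lowest, and Pgm2, phosphoglucomutase, at 45.8 CPM and 9.13 CPM in the same clusters. Mxi1, a MYC antagonist, was highest in cluster 7 at 306 CPM and lowest in cluster 17 at 27.8 CPM. Ldhb was highest in cluster 9, at 41.1 CPM, next in cluster 7 and lowest in cluster 17, at 3.27 CPM. Eno3 was at 33.7 CPM in cluster 9 and at 2.32 to 9.82 CPM in the other 7. Nampt, which makes NAD, was highest in cluster 10 at 343 CPM and lowest in cluster 3 at 84.0 CPM.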
